A study of Mus musculus with 8 samples.

Results

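The genes described are 10 members of the epidermal growth factor (EGF) system, taken as a list of mouse symbols out of 55416 genes in the count table: the ligands Areg, Btc, Hbegf, Tgfa, Epgn and Egf, the receptors Egfr, Erbb2 and Erbb3, and the receptor inhibitor Lrig1. All 10 were found in the table, and 9 passed the filter on low counts; Epgn did not. RNA was sequenced from small intestinal organoids, which are epithelial structures grown in a gel, here from C57BL/6 mice of 4 to 8 weeks. The 8 libraries form 4 groups of 2: untreated (control) organoids at day 4, untreated organoids at day 7, and organoids that received X-rays at a dose of 6 Gy, again at either day. All groups are homozygous for 2 transgenes, Rosa26-rtTA (Tg/Tg), which encodes the doxycycline-dependent activator, and Col1A1-TetO-OSKM (Tg/Tg), the reprogramming cassette it drives, and no label states that doxycycline was given. The labels give neither the event from which days are counted nor whether replicates came from separate animals, so the tests measure the spread between these libraries, which may be technical.

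EGF family ligands are made as membrane proteins and are released by proteases. They bind receptor tyrosine kinases of the ErbB family, which pair with one another and signal through the Ras-ERK and PI3K-Akt pathways. In the intestinal crypt this signalling drives proliferation of stem and progenitor cells, EGF is a usual component of organoid medium, and Lrig1, itself a stem cell marker, lowers the amount of ErbB receptor at the membrane.

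Library totals ran from 7541760 to 16054300 counts, so that 1 count was worth 0.0610 to 0.120 CPM (counts scaled to a common library size with edgeR's TMM factors). Summed epithelial markers were high in every library. At day 4 they were at 3960 to 3969 CPM in controls and 5721 to 6876 after irradiation. At day 7 they were at 3917 to 3950 and 5207 to 5347. Of these 8 markers, 4 rose and 2 fell at day 4, and 3 rose at day 7. At day 4 the 8 Paneth markers (1134 to 1847 CPM in controls and 4075 to 6042 after irradiation) and the 8 enterocyte markers (1928 to 2056 and 6811 to 12960) all rose, and the 4 tested tuft markers (13.7 to 14.3 and 3.01 to 4.46) all fell. Of 7 stem cell markers, 4 fell and 1 rose at day 4 (sums of 1800 to 1901 and 992 to 1075 CPM), and 2, Lgr5 and Olfm4, fell at day 7 (3018 to 3058 and 2040 to 2043). The other stem cell markers were not called at day 7, such as Ascl2 (means of 8.98 and 12.8 CPM) and Smoc2 (481 and 452). The median log2 fold change of the list was -0.09 at day 7. Of 6 goblet markers 3 rose and 1 fell at day 4 (1773 to 2103 and 1723 to 2005 CPM), and 1 of 6 enteroendocrine markers rose (1363 to 2418 and 2454 to 2653). Beside these counts of markers, 36.5% of all 14063 genes tested were called at day 4 and 8.65% at day 7. At day 7 no Paneth marker was called (2104 to 2171 CPM in controls and 1589 to 1597 after irradiation). No tuft marker was called either (6.53 to 7.94 and 3.97 to 4.8). Of 8 enterocyte markers 2 rose (1560 to 1585 and 2676 to 2695). Of 6 goblet markers 2 rose and 1 fell (1177 to 1239 and 799 to 848), and 1 of 6 enteroendocrine markers fell (593 to 595 and 495 to 496). The day 7 sums of these types did not overlap between control and irradiated libraries, but the share of all genes without overlap was not computed. Each sum follows its most abundant markers. The goblet sum was lower with Fcgbp (means of 928 and 571 CPM) and Muc2 (177 and 108), while Clca1 (0.996 and 12.9) and Zg16 (4.69 and 32.3) were higher.

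Markers of other tissues were low but not absent. Immune markers summed to 4.43 to 6.16 CPM in day 4 controls and 10.8 to 12.3 after irradiation, with 3 of 4 tested higher, and endothelial markers to 0.767 to 0.975 and 2.37 to 4.79 CPM, with 1 of 2 tested higher (Tek, 4 and 34 counts). Mesenchymal markers summed to 17.2 to 17.5 and 19.9 to 22.3 CPM, most of it Vim. The macrophage gene Adgre1 and the endothelial genes Cdh5 and Kdr had 0 counts in all 8 libraries. Other immune markers were present at day 4. Csf1r had 2.17 counts in controls and 32.01 after irradiation, Lyz2 had 5.27 and 39.98, and Cd68 had 67 and 36. The part of these cell type shifts in the results below was not tested, and in such bulk RNA fewer cells of a type and less RNA per cell cannot be told apart.

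Areg and Btc lie beside Epgn and Ereg on chromosome 5, where the 4 are consecutive coding genes in the annotation used (GENCODE M21), between Mthfd2l and Parm1. The 150 bases before the start of 4 members are shown, from RefSeq on build GRCm38.p6, each 5′ to 3′ on the strand of its gene: Areg (chr5:91139449-91139598, plus strand) and Btc (chr5:91402995-91403144, minus strand), both higher after irradiation; Epgn (chr5:91027367-91027516, plus strand), their neighbour with almost no counts; and Lrig1 (chr6:94700146-94700295, minus strand), which was lower. Capitals mark matches to the cAMP response element, the GC box or the TATA box, searched on both strands by the letters given after the sequences, and no matches overlapped.
Areg: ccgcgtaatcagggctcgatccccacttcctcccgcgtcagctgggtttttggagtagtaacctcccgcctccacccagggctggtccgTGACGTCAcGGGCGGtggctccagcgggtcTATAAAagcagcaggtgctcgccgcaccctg
Btc: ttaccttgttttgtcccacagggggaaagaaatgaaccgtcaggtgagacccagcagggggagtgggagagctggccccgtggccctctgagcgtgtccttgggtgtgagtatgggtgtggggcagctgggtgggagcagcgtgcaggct
Epgn: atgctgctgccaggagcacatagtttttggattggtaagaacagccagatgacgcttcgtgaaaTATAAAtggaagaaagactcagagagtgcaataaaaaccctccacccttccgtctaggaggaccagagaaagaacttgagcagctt
Lrig1: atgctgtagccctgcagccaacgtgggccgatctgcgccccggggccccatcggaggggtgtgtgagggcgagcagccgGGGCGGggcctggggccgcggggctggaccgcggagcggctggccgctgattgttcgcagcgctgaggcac

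The Areg window held all 3 motifs, with the cAMP response element (TGACGTCA) at 61 to 54 bases before the start, the GC box (GGGCGG) at 52 to 47 and the TATA box (TATAAA) at 31 to 26. Among 32851 promoter windows of the same length, 1.36% held the cAMP response element, 28.6% the GC box and 7.57% the TATA box. The Btc window held none of the 3, the Epgn window held a TATA box at 86 to 81 bases, and the Lrig1 window held a GC box at 71 to 66. The matches are a description of letters and not of bound sites.

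Amphiregulin (Areg), a ligand of Egfr, had the highest fold after irradiation of the 9 tested members at both days. At day 4 Areg, Btc, Tgfa and Erbb3 rose and Lrig1 fell, 5 of the 9 tested members, beside 36.5% of all 14063 genes tested (20% higher and 16.5% lower). At day 7 Areg and Btc rose, 2 of 9, and no member fell, beside 8.65% of all genes (4.7% higher and 3.95% lower). A difference was called at an edgeR adjusted p under 0.05. The tests share an estimate of spread over all groups, although replicates differed more at day 4. The coefficient of variation between replicates was 0.136 in controls and 0.173 after irradiation at day 4, and 0.047 and 0.0409 at day 7. Fits of only the groups compared, given below, called fewer members at day 4 and more at day 7. The counts of calls therefore do not compare the size of the effects between days. The median log2 fold change of the tested members was 0.27 at day 4, against 0.0 over all genes, and 0.14 at day 7. On log2(TPM + 1) values the day 4 calls were 1 higher (Areg) and 1 lower (Lrig1). That scale (TPM, counts scaled for transcript length and library size) shifted the median of all genes by -0.17 at day 4, 0.12 at day 7, 0.26 in the difference between days and 0.30 between the irradiated days.

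**Figure D1:**
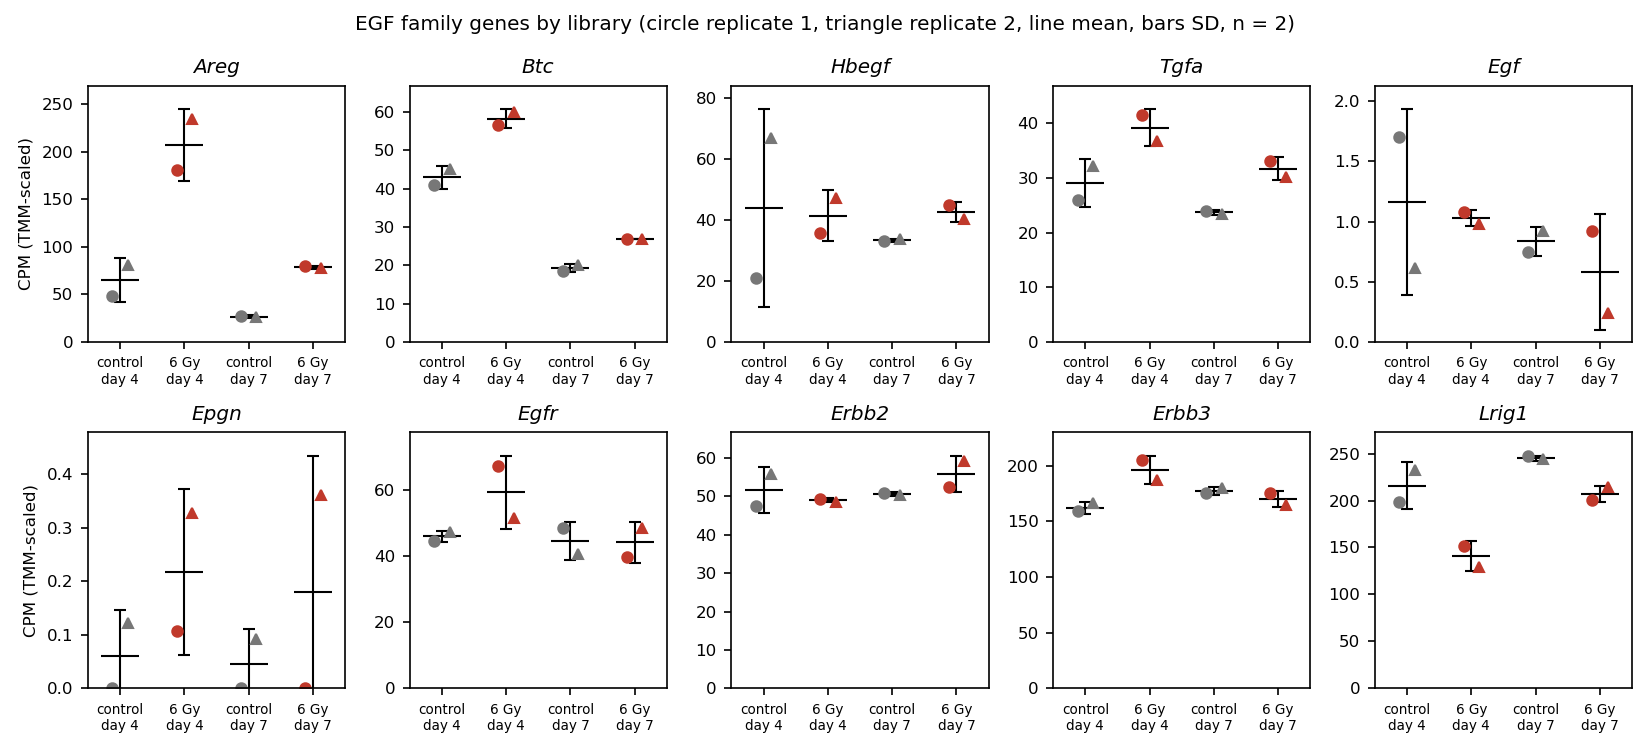
CPM (y axis, linear, from 0) of each member in the 4 groups (x axis), with 1 point per library and the mean with its SD (n = 2). Areg was higher in both irradiated groups than in the controls of the same day, and the control day 4 libraries of Hbegf stand apart at 20.9 and 66.8 CPM.

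Areg was at 48.4 and 81.0 CPM in day 4 controls and at 181 and 234 CPM in irradiated organoids, and at day 7 at 27.5 and 25.6 CPM against 79.6 and 77.1. Every irradiated library was above both controls of its day. The log2 fold change was 1.67 (SE 0.24, 95% interval 1.1 to 2.25, edgeR adjusted p = 0.00245), or 3.19-fold, at day 4 and 1.56 (SE 0.26, 0.94 to 2.19, adjusted p = 0.0191), or 2.96-fold, at day 7. The day 4 call held in every alternative run. Here and below, a fit that leaves out 1 library has 1 library in that group, which is assumed to vary like the other groups, so its p carries no spread from that group. Without any 1 of the 4 day 7 libraries (each control and each irradiated replicate) the day 7 adjusted p was 0.106 to 0.143, with log2 fold changes of 1.51 to 1.63. The effects at the 2 days differed by -0.11 (95% interval -0.95 to 0.74, adjusted p = 0.879), so their difference was not resolved.

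Betacellulin (Btc), which binds Egfr and Erbb4, was at 40.9 and 45.0 CPM in day 4 controls and 56.5 and 60.0 after irradiation, and at day 7 at 18.6 and 20.0 against 26.8 in both irradiated libraries. The groups did not overlap at either day. Btc rose by 0.44 on the log2 scale (SE 0.1, 0.21 to 0.66, edgeR adjusted p = 0.00756) at day 4 and by 0.48 (SE 0.11, 0.22 to 0.73, adjusted p = 0.0314) at day 7. DESeq2 called neither (adjusted p = 0.0597 and 0.101), log2(TPM + 1) gave 0.22 at day 4 (adjusted p = 0.382), and leaving out any 1 day 7 library, control or irradiated, gave a day 7 adjusted p of 0.14 to 0.254.

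Transforming growth factor alpha (Tgfa), another Egfr ligand, was at 26.0 and 32.2 CPM in day 4 controls and 41.6 and 36.8 after irradiation. At day 7 it was at 24.0 and 23.4 CPM in controls and 33.2 and 30.2 in irradiated organoids, without overlap at either day. The log2 fold change was 0.42 at both days (95% intervals 0.13 to 0.71 and 0.12 to 0.72), with edgeR adjusted p = 0.0279 at day 4 and 0.085 at day 7. The day 4 call was lost without control day 4 replicate 1, irradiated day 4 replicate 1 or any 1 day 7 library (adjusted p 0.0513 to 0.128). The day 7 value ran from 0.39 to 0.52 leaving out 1 library. DESeq2 gave an adjusted p of 0.128 at day 4, and log2(TPM + 1) gave 0.20 (adjusted p = 0.542).

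Heparin-binding EGF-like growth factor (Hbegf), also the product of an early response gene, was at 20.9 and 66.8 CPM in day 4 controls, on either side of the irradiated libraries at 35.6 and 47.3. At day 7 it was at 33.0 and 33.7 CPM in controls and 44.8 and 40.3 after irradiation, without overlap. Its log2 fold changes were -0.1 (95% interval -1.51 to 1.31, edgeR adjusted p = 0.908) at day 4 and 0.35 (-1.1 to 1.81, adjusted p = 0.753) at day 7. The spread is shared over all groups, so the day 7 interval also carries the difference between the day 4 controls. In a fit of only the day 7 groups Hbegf was called. The day 4 direction turned with the control library kept: without control day 4 replicate 1 the value was -0.69 (adjusted p = 0.00997) and without replicate 2 it was 0.99 (adjusted p = 0.00465), each against a lone control whose spread is taken from the other groups. The difference between the effects at the 2 days was 0.45 (edgeR adjusted p = 0.764), and ran from -0.63 to 1.04 leaving out 1 library.

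The control day 4 libraries differed in other genes of the pathway as well. Hbegf was 3.2-fold higher in replicate 2 than in replicate 1, a ratio reached by 0.622% of 13978 genes, and Areg was 1.67-fold higher. All 10 feedback inhibitors of ERK were higher in replicate 2, by a median of 1.59-fold, beside 50.7% of all genes and a median ratio of 1. Of 9 genes known to respond to ERK, 7 were higher, by a median of 1.33-fold, from Egr1 (1.98-fold) and Fos (1.94-fold) to Ier3 and Etv1, which were lower, with ratios of 0.85 and 0.551. Paneth and enteroendocrine markers were lower there in 8 of 8 and 6 of 6 genes, with median ratios of 0.653 and 0.617. Median ratios were 0.707 for enterocyte and 0.804 for goblet markers, beside 0.992 for tuft and 1.03 for stem cell markers. The part of these differences in the Hbegf result was not tested.

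Egf and Epgn were barely detected. Egf had 20 and 10 counts in day 4 controls, 10 and 9 after irradiation, 7 and 10 in day 7 controls and 9 and 2 in irradiated organoids, and neither contrast passed the test (log2 fold changes -0.12 and -0.48, edgeR adjusted p = 0.905 and 0.739). Epgn, epithelial mitogen, had 10 counts in all 8 libraries together. Its ratio of irradiated to control was 3.05 (95% counting interval 0.437 to 33.7) at day 4 and 3.34 (0.268 to 176) at day 7, not resolved at this depth. The intervals cover counting error only.

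Egfr, the receptor of Areg and Tgfa, was at 44.6 and 47.2 CPM in day 4 controls and 67.1 and 51.4 after irradiation. At day 7 it was at 48.5 and 40.6 CPM in controls and 39.7 and 48.5 in irradiated organoids, which overlapped. The log2 fold change was 0.37 (0.04 to 0.7, edgeR adjusted p = 0.0794) at day 4 and -0.02 (-0.36 to 0.33, adjusted p = 0.966) at day 7. Leaving out 1 library, the day 4 value ran from 0.16 to 0.54.

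Erbb2, which has no known ligand of its own and serves as a partner of the others, was at 47.4 to 59.2 CPM over the 8 libraries. Its day 4 libraries were at 47.4 and 55.8 CPM in controls and 49.4 and 48.6 after irradiation, and its day 7 libraries at 50.9 and 50.3 against 52.5 and 59.2. The log2 fold changes were -0.08 (-0.32 to 0.16, edgeR adjusted p = 0.609) and 0.14 (-0.1 to 0.38, adjusted p = 0.457). The intervals leave room for changes of up to 0.32 and 0.38 on the log2 scale.

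Erbb3, which has little kinase activity of its own and binds neuregulins, was at 159 and 166 CPM in day 4 controls and 205 and 187 after irradiation. At day 7 it was at 175 and 180 CPM in controls and 175 and 165 in irradiated organoids. It rose by 0.27 on the log2 scale (SE 0.08, 0.09 to 0.45, edgeR adjusted p = 0.0232) at day 4 and was at -0.06 (-0.24 to 0.12, adjusted p = 0.684) at day 7. The day 4 call was lost without control day 4 replicate 1, irradiated day 4 replicate 1 or any 1 day 7 library (adjusted p 0.0542 to 0.0777), in DESeq2 (0.092) and on log2(TPM + 1), where the value was 0.06 (adjusted p = 0.841). The difference between days was -0.33 (-0.58 to -0.08, edgeR adjusted p = 0.0892), and ran from -0.40 to -0.24 leaving out 1 library.

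Lrig1 moved the other way. It was at 198 and 233 CPM in day 4 controls and 152 and 129 after irradiation, and at day 7 at 247 and 244 against 201 and 214. Both irradiated groups were below their controls without overlap. Lrig1 fell by 0.62 on the log2 scale at day 4 (SE 0.1, -0.85 to -0.38, edgeR adjusted p = 0.00132), to 0.652 of the control level, a call kept in every alternative run. At day 7 the value was -0.24 (-0.47 to -0.01, edgeR adjusted p = 0.171). The difference between days was 0.37 (0.05 to 0.7, edgeR adjusted p = 0.131), and ran from 0.25 to 0.50 leaving out 1 library. Of the 7 stem cell markers, 4 fell and 1 rose at day 4 and 2 fell at day 7, and their part in the Lrig1 result was not tested.

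**Figure D2:**
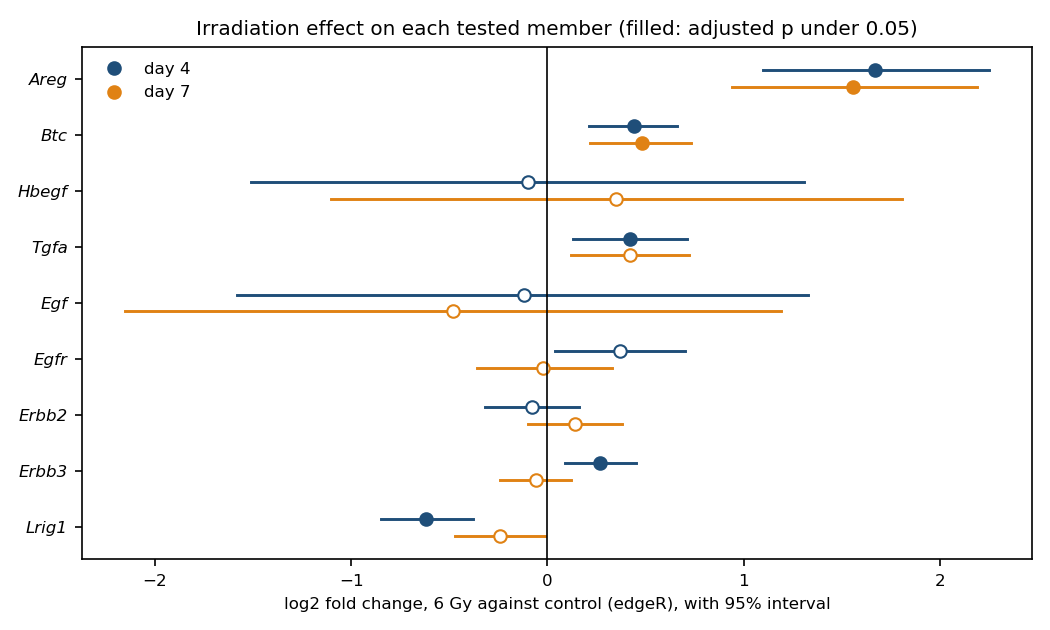
Log2 fold change of irradiated against control organoids (x axis) for the 9 tested members at day 4 and day 7, with 95% intervals from the edgeR fit. Areg lies farthest to the right at both days, at 1.67 and 1.56, and Lrig1 farthest to the left among called members at -0.62.

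No member passed the test of whether the irradiation effect differed between days, beside 10.1% of all genes (4.6% higher and 5.51% lower). In edgeR 2 of 9 (Erbb3 and Lrig1) had an unadjusted p under 0.05, and the share of all genes at that threshold was not computed. DESeq2 and limma-voom also called 0, and the fit with no filter called 1. This count does not show that the effects were alike.

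Of the 5 tested ligands, Btc changed with the day of collection in controls, and Areg and Btc in irradiated organoids. Among controls, 1 of 9 members was called between day 7 and day 4, beside 2.72% of all genes (1.25% higher and 1.46% lower): Btc fell by 1.16 on the log2 scale (edgeR adjusted p = 0.00109). Areg was at -1.3 (95% interval -1.92 to -0.67, adjusted p = 0.058). Leaving out 1 library, Areg ran from -1.61 to -0.87 and Hbegf from -1.004 to 0.67. In a fit without 1 day 4 control, that group is 1 library and the spread comes from the other groups.

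Among irradiated organoids, 3 of 9 members were called between the days, beside 33% of all genes (14.7% higher and 18.3% lower). Areg fell by 1.4 (edgeR adjusted p = 0.0065), Btc fell by 1.12 (adjusted p = 0.000133) and Lrig1 rose by 0.56 (adjusted p = 0.00314) on the log2 scale. The Areg call was lost without irradiated day 4 replicate 2 (-1.20, adjusted p = 0.0557) or either irradiated day 7 library (adjusted p = 0.0502 and 0.0542). Egfr (-0.43) and Erbb3 (-0.21) were not called. Leaving out 1 library, Egfr ran from -0.61 to -0.225 and Erbb3 from -0.27 to -0.13. These contrasts share libraries with the irradiation contrasts, so their values are not independent of them.

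Levels were compared between genes in TPM, which is per transcript length. In day 4 controls Areg (75.1 ± 31.2, SD, n = 2) and Lrig1 (63.1 ± 12.8) led and overlapped, followed by Erbb3 (35.8 ± 3.46). After irradiation at day 4 Areg stood alone at 204 ± 4.24 TPM, with Erbb3 next at 37.7 ± 8.46 and overlapping Lrig1 at 34.8 ± 7.53.

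In day 7 controls the order was Lrig1 (72.1 ± 4.96 TPM), Erbb3 (40.3 ± 1.24) and Areg (31.4 ± 1.24), without overlap between neighbours. In irradiated day 7 organoids Areg was again first (103 ± 1.77 TPM), above Lrig1 (66.3 ± 5.51). Areg thus stood above all other members in both irradiated groups, was not resolved from Lrig1 in day 4 controls and stood behind Lrig1 and Erbb3 in day 7 controls.

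The 6 ligands summed to 90.4 and 170 TPM in day 4 controls and to 259 in both irradiated libraries, and at day 7 to 67.8 and 69.2 against 159 and 154. Areg made up 58.6% and 57.1% of that sum in day 4 controls and 77.6% and 80.0% after irradiation, and at day 7 47.7% and 44.2% against 65.4% and 66.2%. The 3 receptors summed to 58.1 ± 6.84 and 60.9 ± 12.6 TPM at day 4 and 63.5 ± 1.7 and 69.2 ± 2.45 at day 7, in controls and irradiated organoids (SD, n = 2). The ligand sum, of which Areg was the largest part in every library, separated irradiated from control libraries at both days. At day 4 Hbegf overlapped between control (11.09 and 39.9 TPM) and irradiated libraries (20.34 and 20.44). Tgfa overlapped as well (7.35 and 10.1 against 11.95 and 8.46). The sum without Areg was not computed. Erbb3 held 58.8% to 65.0% of the receptor sum.

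**Figure D3:**
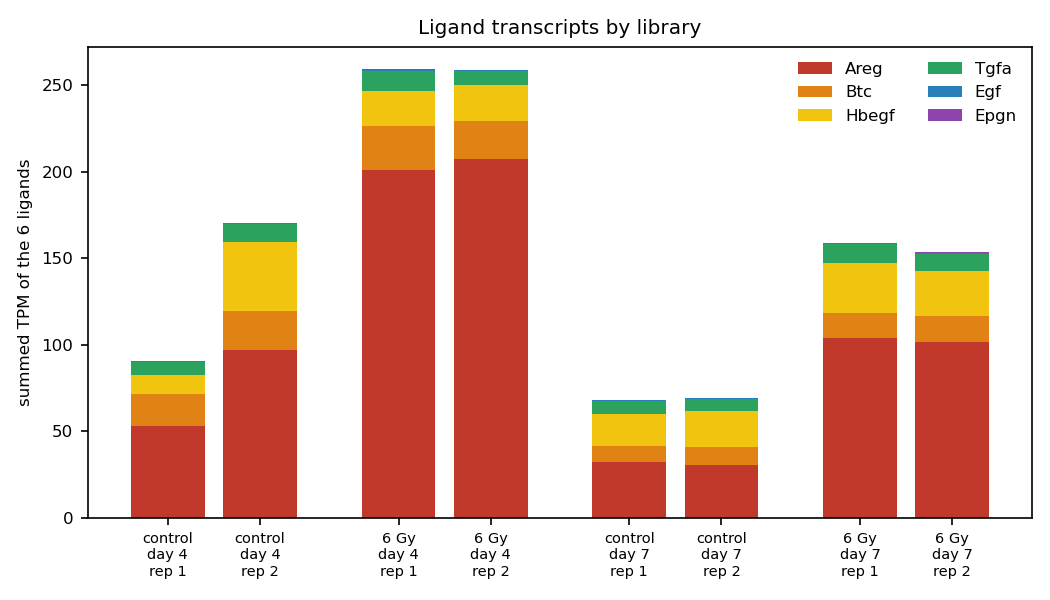
Summed TPM of the 6 ligands by library (y axis, from 0), stacked by gene, for the 4 groups (x axis). The irradiated libraries sum to 259 at day 4 and to 159 and 154 at day 7, and Areg forms the largest share in every library.

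Other genes of the pathway, from 7 lists of 67 genes of which 66 were in the table, were called about as often as all genes at day 4: of 61 tested, 12 rose and 8 fell, 32.8%. At day 7, 5 rose and 5 fell, 16.4%, beside 8.65% of all genes. Median log2 fold changes were -0.02 and -0.01.

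Of 6 further family members, only Nrg4, a ligand of Erbb4, passed the filter. It was at 3.24 and 2.13 CPM in day 4 controls and 4.84 and 8.06 after irradiation, and rose by 1.28 on the log2 scale (edgeR adjusted p = 0.0114), with 0.91 (adjusted p = 0.122) at day 7. Ereg, the neighbour of Areg, had 2 counts in day 4 controls and 9 after irradiation, 7 of them in replicate 1, a ratio of 6.87 (95% counting interval 1.42 to 65.3), and 3 and 3 at day 7. Without that library, a choice made after seeing the data, the ratio was 3.07 (0.222 to 42.3). These intervals also cover counting error only. Nrg1, an Erbb3 ligand, had 6 and 11 counts at day 4, a ratio of 2.8 (0.948 to 9.21). Erbb4, the remaining receptor, had 4 counts, all in irradiated day 4 libraries, while the control limit of 3 counts stands at 0.107 CPM.

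Among 6 tested genes of ligand release, 1 rose and 1 fell at each day. Frmd8, which stabilises the iRhom and ADAM17 sheddase complex, was at 12.5 and 14.1 CPM in day 4 controls and 35.8 and 33.1 after irradiation. It rose by 1.36 (edgeR adjusted p = 3.63e-05) at day 4 and 0.56 (adjusted p = 0.0288) at day 7. Timp3, an inhibitor of ADAM17, fell by 0.93 (adjusted p = 0.0125) and 1.97 (adjusted p = 0.00543) on the log2 scale.

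Of 9 receptor inhibitors, 3 rose and 1 fell at day 4, and 1 fell at day 7. Cblc rose by 0.9 (edgeR adjusted p = 0.00248) and Errfi1, which blocks the Egfr kinase, by 0.55 (adjusted p = 0.0134) at day 4. Cbl, a ubiquitin ligase for Egfr, fell by 0.36 (adjusted p = 0.00959) and 0.38 (adjusted p = 0.0316) at the 2 days.

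Among 17 adaptors and kinases of the Ras-ERK path, 2 rose and 1 fell at day 4 and 1 rose and 1 fell at day 7. Map2k2, which encodes the ERK kinase MEK, rose by 0.66 at both days (edgeR adjusted p = 0.000433 and 0.00376) and Hras by 0.65 at day 4 (adjusted p = 0.00635). Sos1, a Ras exchange factor, fell by 0.33 (adjusted p = 0.0185) and 0.46 (adjusted p = 0.0163). Of 8 PI3K and Akt genes, 1 fell at day 4: Pik3r1, a regulatory subunit of PI3K, by 0.7 (adjusted p = 0.000701).

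The 10 ERK feedback inhibitors moved in both directions at day 4, 2 up and 4 down, with 1 up and 1 down at day 7. Dusp5, a phosphatase of ERK, rose at both days, by 1.05 (edgeR adjusted p = 0.0112) and 1.04 (adjusted p = 0.0412), and Dusp6, another, by 1.1 (adjusted p = 0.0177) at day 4. Spred1 fell at both days, by 0.57 (edgeR adjusted p = 0.00252) and 0.51 (adjusted p = 0.0214), and Spry2 and Dusp4 fell at day 4, by 0.85 (adjusted p = 0.00612) and 0.78 (adjusted p = 0.00955). All 10 were also higher in control day 4 replicate 2 than in replicate 1, as given above.

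Of 10 genes known to respond to ERK, 3 rose at day 4 and 2 at day 7. Fosl1, a partner in AP-1, had 1 count in day 4 controls and 74 after irradiation, a ratio of 113 (95% counting interval 19.7 to 4520), and 3 and 31 at day 7, a ratio of 11.5 (3.59 to 58.9). Phlda1 rose by 0.51 (edgeR adjusted p = 0.0152) and Ccnd1, cyclin D1, by 0.93 (adjusted p = 0.0169) at day 4, with 0.23 and 0.01 at day 7.

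**Figure D4:**
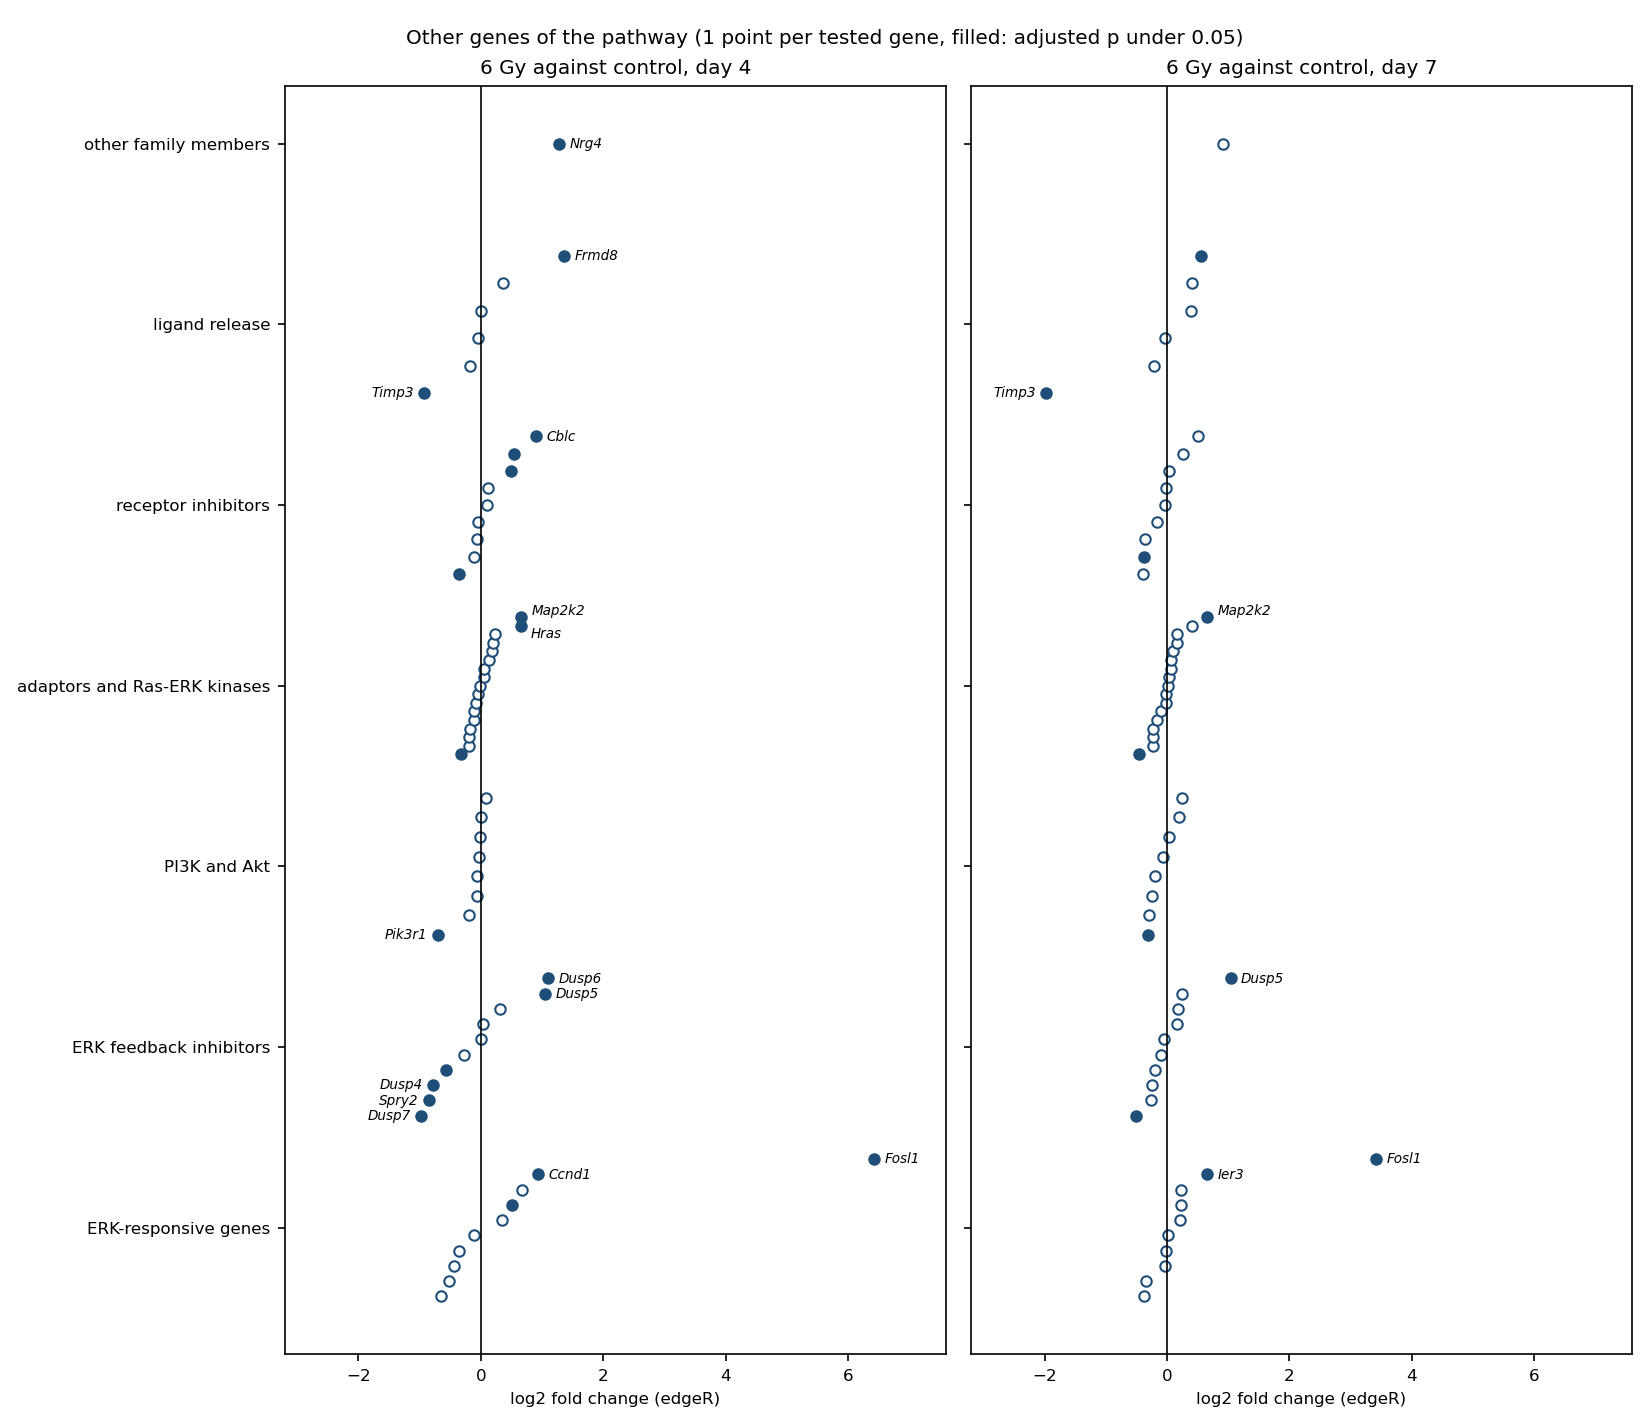
Log2 fold change of irradiated against control organoids (x axis) for the tested genes of 7 pathway lists (y axis) at day 4 and day 7, filled where the edgeR adjusted p was under 0.05. Filled points lie on both sides of 0, and the fitted value of Fosl1 rests on 1 control count at day 4 and is not a bound.

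The genes with patterns most like the called members were found by the root mean square difference in centred log2 CPM over the 8 libraries, among 10497 genes. For Areg, whose own range was 3.18, they were Phlda3 (0.212) and Tmem106a (0.221), and for Btc (range 1.68) Rin1 (0.161) and Npc1l1 (0.164). For Tgfa (range 0.83) they were Sdc1 (0.052) and Coro1c (0.07), and for Erbb3 (range 0.37) Fam3a (0.04) and Cops2 (0.049). For Lrig1 (range 0.94) they were Rps12 (0.048) and Rplp1 (0.052), ribosomal protein genes whose near-identical copies can share reads. A member with a small range lies near any gene that varies little, so these differences do not rank the matches between members.

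Overlapping genes could affect some members. In the annotation used, 1 gene on the same strand overlaps each of Lrig1, Erbb3 and Egf. On the opposite strand Slc25a26 overlaps Lrig1, Egfros overlaps Egfr, Mien1 and 1 other gene overlap Erbb2, Gm43917 overlaps Tgfa and 3 genes overlap Egf, and the strand setting of the counting is not given in the sources used here. Lrig1 counts were whole in 0 of 8 libraries, so part of its reads was shared out by estimate, while those of Areg, Btc and Hbegf were whole in all 8 (within 0.001).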

How the data were processed

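RNA of 8 organoid libraries was made with a directional poly-A kit, per the labels' protocols. The submitters' processing notes name RSEM 1.3.3, STAR 2.7.3a, Trim Galore and FastQC, and the builds GRCm39 and mm10 with no role. The authors deposited RSEM expected counts and TPM per gene. Expected counts were rounded, which changed 11.45% of values. A single fit of 4 group means in edgeR 4.0.16 (R 4.3.3; robust quasi-likelihood, TMM, filterByExpr with minimum count 10 and total 15) tested 14063 genes in 5 contrasts with 4 residual degrees of freedom. Tests were two-sided with Benjamini-Hochberg adjustment over all genes tested. The procedure was tested on simulated data with the same spread in all genes and groups. That test does not cover the difference in spread between day 4 and day 7. Alternatives used DESeq2 1.42.0, limma 3.58.1, other filters and scalings, a replicate block and leaving out each library. Members and gene lists were chosen with earlier results of these data known. Named were all members, Ereg, Erbb4 and Nrg1, up to 3 called genes per pathway list with the smallest adjusted p, and the 2 nearest patterns of each called member with a mean of at least 5 CPM. Other genes are named as values beside these and were chosen after their values were seen. The result of 1 gene that this rule names is not reported here.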

Additional observations from a re-analysis of the deposited data

Results flagged for a closer look

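Frmd8, a cofactor of the sheddase that releases EGF family ligands, differed in its response to irradiation between the days. It was at 12.5 and 14.1 CPM in day 4 controls and 35.8 and 33.1 after irradiation, and at 16.1 and 17.7 against 24.1 and 25.6 at day 7. The effect at day 7 less that at day 4 was -0.81 on the log2 scale (95% interval -1.21 to -0.41, edgeR adjusted p = 0.0219), with both irradiated libraries above both controls at each day.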

How the results depend on the processing

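With 2 libraries a group the fit had 4 residual degrees of freedom, and Egf, Epgn, Ereg, Nrg1 and Erbb4 are limited by depth. Of the members' log2 fold changes under the alternatives, 618 kept their direction and side of the threshold, 41 lost and 28 gained the call, and 52 changed sign. No value that changed sign was called in the reported edgeR fit. Except where stated, the cause of a change was not tested.

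Members called at day 4 (5 as reported) were 2 in DESeq2, 2 on log2(TPM + 1), 2 on log2(TPM + 0.1), 3 in a fit of only the groups compared and 3 to 6 leaving out 1 library. At day 7 (2) they were 1 in DESeq2, 1 in limma-voom, 1 on either TPM scale, 5 in a fit of only the groups compared (adding Hbegf, Tgfa and Lrig1) and 0 to 3 leaving out 1 library. For the difference between days (0) there was 1 with no filter and 0 to 1 leaving out 1 library. For control day 7 against day 4 (1) there were 2 with no filter, with at least 5 CPM in 2 libraries, in DESeq2 and in limma-voom, 0 on either TPM scale and 1 to 3 leaving out 1 library. For irradiated day 7 against day 4 (3) there were 5 with at least 5 CPM in 2 libraries and 2 to 4 leaving out 1 library.

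Same-numbered libraries deviated together little over all tested genes (correlations of replicate differences between groups, -0.035 to 0.058). Such a check cannot exclude a small shared effect, as of a common animal or culture. With the replicate block 2 members were called for control day 7 against day 4, with Areg at an edgeR adjusted p of 0.0439, and the counts of members called in the other contrasts stayed at 5, 2, 0 and 3.

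On log2(TPM + 1) and log2(TPM + 0.1) the sign changed for Areg (0.19 and 0.20), Tgfa (0.31 and 0.34) and Erbb3 (0.024 and 0.024) in the difference between days, Erbb3 at day 7 (0.082 and 0.084), Egfr (0.12 and 0.13) and Erbb2 (0.014 and 0.015) between control days, and Tgfa (0.089 and 0.098) and Erbb3 (0.19 and 0.20) between irradiated days. These scales shift the median of all genes by 0.26 and 0.30 in the difference between days, 0.30 and 0.34 between irradiated days, 0.12 and 0.13 at day 7 and 0.04 and 0.05 between control days. Egfr at day 7 was 0.039 with no filter, 0.001 in DESeq2 and 0.002 on log2(TPM + 1). In limma-voom Hbegf was 0.056 and Egf 0.14 at day 4. Hbegf between irradiated days was -0.003 with at least 5 CPM in 2 libraries. Tgfa in the difference between days was 0.013 with DESeq2's size factors, 0.097 with no filter, 0.03 in DESeq2 and 0.002 in limma-voom.

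Leaving out 1 library, the values that crossed 0 ran as follows. At day 4 Hbegf ran from -0.69 to 0.99, Egf from -0.72 to 0.74 and Erbb2 from -0.19 to 0.047. At day 7 Egf ran from -1.71 to 0.17, Egfr from -0.14 to 0.17 and Erbb3 from -0.093 to 0.019. In the difference between days Areg ran from -0.54 to 0.21, Btc from -0.033 to 0.11, Tgfa from -0.17 to 0.14, Egf from -1.58 to 0.30 and Hbegf from -0.63 to 1.04. Between control days Egf ran from -1.01 to 0.45, Egfr from -0.18 to 0.079, Erbb2 from -0.14 to 0.095 and Hbegf from -1.004 to 0.67, and between irradiated days Hbegf ran from -0.15 to 0.26.

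Over all genes, calls at day 4 (5130) were 2686 and 2598 on the TPM scales and 3158 with only the groups compared. At day 7 (1216) they were 2044 with no filter, 328 and 311 on the TPM scales and 4747 with only the groups compared. For the difference between days (1422) they were 2456 with no filter and 179 and 144 on the TPM scales. For control days (382) they were 1217 with no filter, 40 and 35 on the TPM scales and 628 with only the groups compared. Leaving out 1 library gave 3873 to 5042, 98 to 2350, 239 to 2749, 11 to 1253 and, for irradiated days (4639), 2113 to 5251. On log2(TPM + 1) the higher and lower calls were 1074 and 1612 at day 4 (2808 and 2322 as reported), 268 and 60 at day 7 (661 and 555), 23 and 17 for control days (176 and 206) and 3158 and 734 for irradiated days (2071 and 2568).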
